A study of Homo sapiens with 4 samples.

Results

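The genes described here belong to NF-kB signalling, acute inflammation and cytokine reception. They were taken by symbol from a list of 46, of which 42 had a row among the 30863 genes of the expression table. CXCL6, CCL2, CRP and SAA1 had no row, so their RNA was not analysed here. The study compared poly(A)-selected RNA of HepG2, a human liver cancer line that the labels type as hepatoblastoma with a wild-type genotype. One group received the solvent DMSO and the other AMF, which the series title spells out as amentoflavone, a plant biflavonoid, and both were harvested at 48 h. The dose is uncertain, since the treatment protocol names 90 µM AMF and the design text gives 80 µM for Tub B; AMF below stands for the group that bears this name. Each group has 2 libraries, numbered 1 and 2, from 1 cell line, and nothing in the labels says that they were separate cultures, and each p-value therefore reflects only how far these particular libraries differed, possibly for technical reasons.

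NF-kB is a family of dimeric transcription factors that inhibitory IkB proteins hold in the cytoplasm. Signals from tumour necrosis factor, interleukin-1 or microbial products activate the IkB kinases, the IkB proteins are degraded, and the dimers enter the nucleus to switch on chemokines, adhesion molecules and their own inhibitors, which closes a feedback loop. In hepatocytes this route works beside interleukin-6 family cytokines, which signal through the shared receptor gp130, encoded by IL6ST, and the transcription factor STAT3, and together they drive the acute phase response of the liver. SOCS proteins end cytokine signalling.

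Promoter sequences are shown so that the motif matches near the starts of feedback, subunit and chemokine genes can be read beside the changes of their RNA. A match describes letters in a window and is no evidence of binding. RefSeq windows (GRCh38.p14) from 250 bases before to 50 bases after an annotated start were at hand for 35 of the 46 listed genes, 51 windows in all. Of these genes 33 had a row, whereas CRP and CXCL6, whose window holds both motifs below, had none. The windows were searched on both strands for a strict NF-kB consensus of 10 bases, named the kB motif, and for the STAT motif TTCNNNGAA. Overlapping matches count once per window. Stretches that differ from the kB motif by 1 letter were not counted, and the CXCL8 and ICAM1 windows hold such stretches. The kB motif was found in 18 of these 51 windows (35.3%) and in 5.91% of all 35116 windows, and the STAT motif in 8 (15.7%) and in 7.66%. The list was drawn up as one of NF-kB genes, so the higher share is a description of it and no independent result. Letters in capitals mark the kB matches, and each sequence reads 5′ to 3′ along the gene. The first set comes from genes whose RNA was lower in AMF, with NFKBIA and TNFAIP3 shown over the whole window and NFKBIZ at its more upstream start:
NFKBIA (chr14:35404700-35404999, minus strand): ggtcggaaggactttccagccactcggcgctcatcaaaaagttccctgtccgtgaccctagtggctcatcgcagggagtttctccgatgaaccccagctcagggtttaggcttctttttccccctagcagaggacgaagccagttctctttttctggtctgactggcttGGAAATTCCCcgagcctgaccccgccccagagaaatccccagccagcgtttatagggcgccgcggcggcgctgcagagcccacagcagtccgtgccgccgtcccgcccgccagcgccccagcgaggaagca
TNFAIP3 (chr6:137867009-137867308, plus strand): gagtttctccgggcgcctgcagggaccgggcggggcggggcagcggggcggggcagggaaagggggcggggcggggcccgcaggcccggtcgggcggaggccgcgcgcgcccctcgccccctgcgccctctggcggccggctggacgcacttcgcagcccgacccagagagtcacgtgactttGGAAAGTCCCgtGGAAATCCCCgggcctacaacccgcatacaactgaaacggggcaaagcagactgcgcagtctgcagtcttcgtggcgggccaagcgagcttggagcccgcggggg
NFKB1 (chr4:102501295-102501334, plus strand): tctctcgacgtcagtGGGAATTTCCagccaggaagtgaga
REL (chr2:60881512-60881552, plus strand): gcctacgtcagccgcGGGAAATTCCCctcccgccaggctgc
NFKBIZ (chr3:101827752-101827791, plus strand): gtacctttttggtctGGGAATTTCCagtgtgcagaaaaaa
TNIP1 (chr5:151081052-151081091, minus strand): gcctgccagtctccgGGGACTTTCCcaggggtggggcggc
CCL20 (chr2:227813748-227813787, plus strand): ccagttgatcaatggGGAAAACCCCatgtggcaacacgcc

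The second set comes from genes whose RNA was higher in AMF:
IL32 (chr16:3065289-3065329, plus strand): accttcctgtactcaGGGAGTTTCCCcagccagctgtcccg
NFKBIB (chr19:38899926-38899966, plus strand): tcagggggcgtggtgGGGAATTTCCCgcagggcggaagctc

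The third set comes from 4 neutrophil-attracting chemokine genes with at most 14 reads in any library, whose windows hold the same run of kB letters:
CXCL1 (chr4:73869299-73869339, plus strand): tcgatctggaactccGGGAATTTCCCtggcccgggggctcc
CXCL2 (chr4:74099248-74099288, minus strand): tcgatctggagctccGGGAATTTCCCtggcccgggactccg
CXCL3 (chr4:74038743-74038783, minus strand): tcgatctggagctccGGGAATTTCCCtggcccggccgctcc
CXCL5 (chr4:73998743-73998783, minus strand): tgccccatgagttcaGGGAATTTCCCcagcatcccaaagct

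Of genes with a window, the kB motif was found for 8 of the 16 that were lower in AMF, for 2 of the 8 that were higher and for 4 of the 8 that did not pass. Over all genes with a window its share was 7.09%. Matches began 49 bases before the more upstream start of NFKB1, 81 before the start of NFKBIA and 67 and 55 before that of TNFAIP3. In IL32 the match began 99 bases before its more upstream start. STAT letters began 75 bases before the start of ICAM1 and 123 before that of CD14. For RELA they began 106 bases before its more upstream start, and the window at its other start held none. ICAM1 was lower in AMF, and RELA and CD14 were higher. A further STAT match began 47 bases before a start of IL1R1, which was lower. In all, the STAT motif was found for 2 of the 16 genes that were lower, 2 of the 8 that were higher and 2 of the 8 that did not pass. Over all genes with a window its share was 9.38%. The windows of ICAM1, RELA and CD14 show these letters in capitals:
ICAM1 (chr19:10271030-10271068, plus strand): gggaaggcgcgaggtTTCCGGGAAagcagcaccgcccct
RELA (chr11:65663940-65663978, minus strand): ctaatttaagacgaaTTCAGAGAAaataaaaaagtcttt
CD14 (chr5:140633275-140633313, minus strand): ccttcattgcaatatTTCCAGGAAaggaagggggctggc

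**Figure D1:**
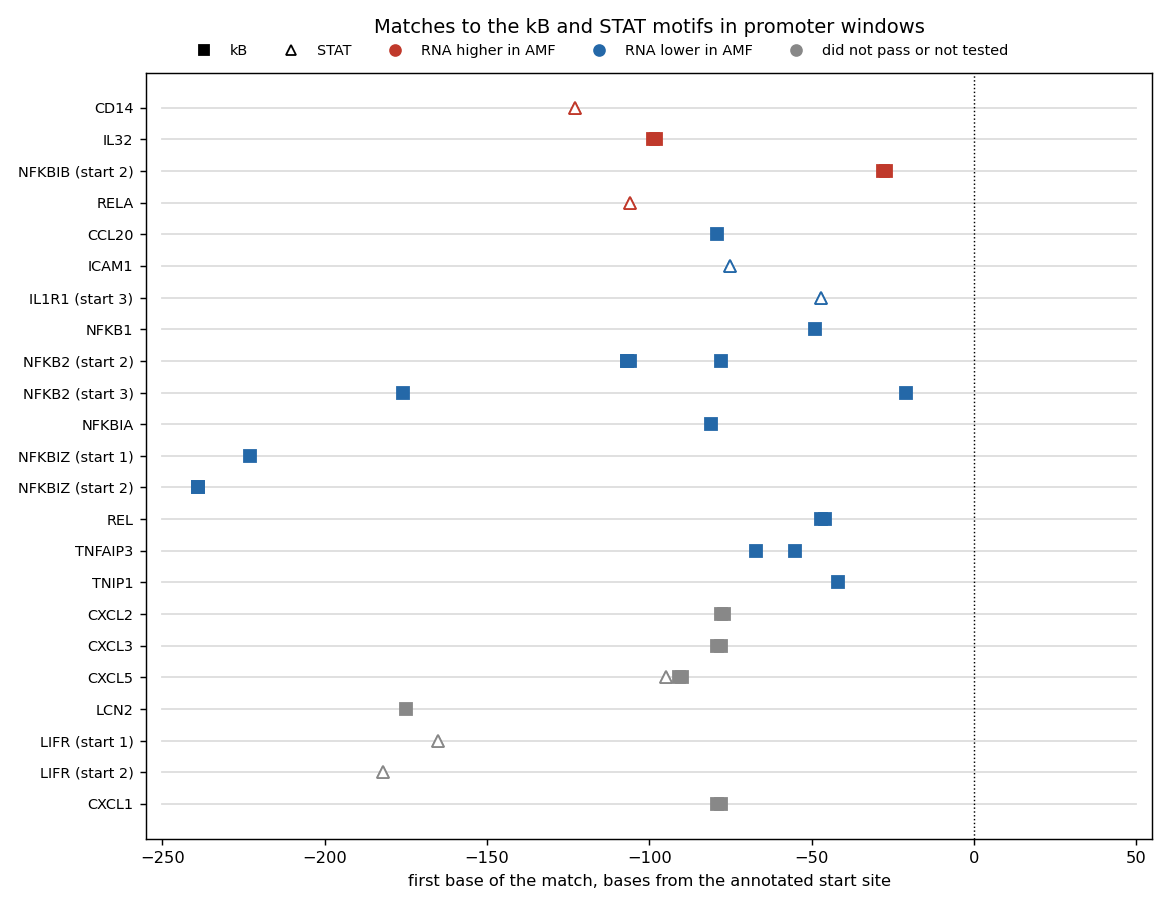
Position of kB motif matches (filled squares) and STAT motif matches (open triangles) in promoter windows, in bases from the annotated start site. Each line is 1 window that holds a match, and CXCL6, which had no row, is not drawn. Genes with several starts are numbered from the most upstream. Blue marks genes with lower RNA in AMF, red those with higher RNA and grey those that did not pass or were not tested. The kB matches of CXCL1, CXCL2 and CXCL3 begin 77 to 79 bases before the start.

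Libraries held 24226586 to 26966210 reads in genes. Levels are given as normalized counts, the reads divided by 1 size factor per library, and in each library 1 read equals 0.929 to 1.03 normalized counts. Changes are log2 differences of AMF minus DMSO on the scale of log2(normalized count + 1), which understates changes of genes with few reads, and p-values are those of limma, adjusted by Benjamini-Hochberg over the 23828 genes whose mean was 1 or more. The labelled cell type was checked on 10 hepatocyte markers, all detected, whose summed level was 569209 to 589046 normalized counts in DMSO and 395055 to 416151 in AMF. Of these, 7 were lower, HNF4A was higher (7044 and 7053 in DMSO, 13071 and 12569 in AMF, a change of 0.86) and ALB was among the 2 that did not pass (-0.02). Of 12 macrophage markers 5 had a row, without the defining genes PTPRC, CD163 and MARCO, and their summed level of 24606 to 25213 in DMSO and 17453 to 18399 in AMF came almost wholly from the lysozyme gene LYZ. Sums of the markers present were 263 to 280 in DMSO and 171 to 207 in AMF for lymphocytes (5 of 7), 493 to 533 and 245 to 250 for neutrophils (3 of 5), 160 to 201 and 293 to 308 for endothelial cells (5 of 6), and 970 and 1209 to 1225 for stellate cells or fibroblasts (6 of 6). That last sum came mostly from ACTA2 (760 and 775 in DMSO, 1173 and 1200 in AMF), while COL1A1 (116 and 86.2, then 5.57 and 8.24) and PDGFRB (94 and 108, then 26 and 13.4) were lower, and the median change of its 4 tested markers was -0.87. Mitochondrially encoded genes took 7.69% to 7.73% of the reads in DMSO and 9.53% to 9.61% in AMF. The part of these differences in the results below was not tested, and fewer cells of a type and less RNA per cell cannot be told apart in bulk RNA.

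Most of the well measured genes of this group differed between AMF and DMSO, and the falls outnumbered the rises. The feedback inhibitors NFKBIA, TNFAIP3 and SOCS1, both interleukin-1 receptor chains and 3 of 7 tested chemokines were lower, whereas the cytokine LIF, the interleukin-6 receptor and TNFAIP2 were higher. Of the 40 genes tested, 28 passed an adjusted p of 0.05, against 31.8% of all genes tested. Of these, 10 were higher (background 15.6%) and 18 were lower (background 16.2%). With a change of at least 1.5-fold in addition, 6 were higher (background 7.60%) and 12 lower (background 5.30%). Where the mean reached 100, which makes a call easier, 26 of 32 passed against 54.7% of all such genes. The median change of the 40 genes was -0.31, and that of all genes tested was 0.04. CXCL1, with 1 read over the 4 libraries, and SAA2, with 3, were too rare to test.

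In all 28 called genes the ranges of the AMF and DMSO values were separate. Leaving out any library could therefore not reverse a direction, and the unchanged directions are no test of stability. Each fold moved by less than 1.5 times with a library left out. Calls were less stable than these folds. Without DMSO replicate 1 or 2 some of these calls ended, and calls over all genes tested became fewer too. Without AMF replicate 1 or 2 every call ended in limma-trend, over all genes tested as well as among these 28. The loss is therefore not particular to these genes. There, voom applied to whole reads kept some of the calls. Without AMF replicates 1 and 2 the change of LIF was 1.34 and 1.41, and that of TNFAIP2 was 2.14 and 2.28. In the same fits IL1RN changed by -1.85 and -1.87 and SOCS1 by -1.56 and -1.90. With a library left out, 1 group holds a single library, which is assumed to vary like the other group. On the deposited log2 scale, which compresses low levels, 4 changes were over 1.5 times smaller as folds, at 1.27 for TNFAIP2, 0.37 for CD14, -1.20 for IL1RN and -1.02 for SOCS1, and all 4 passed.

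**Figure D2:**
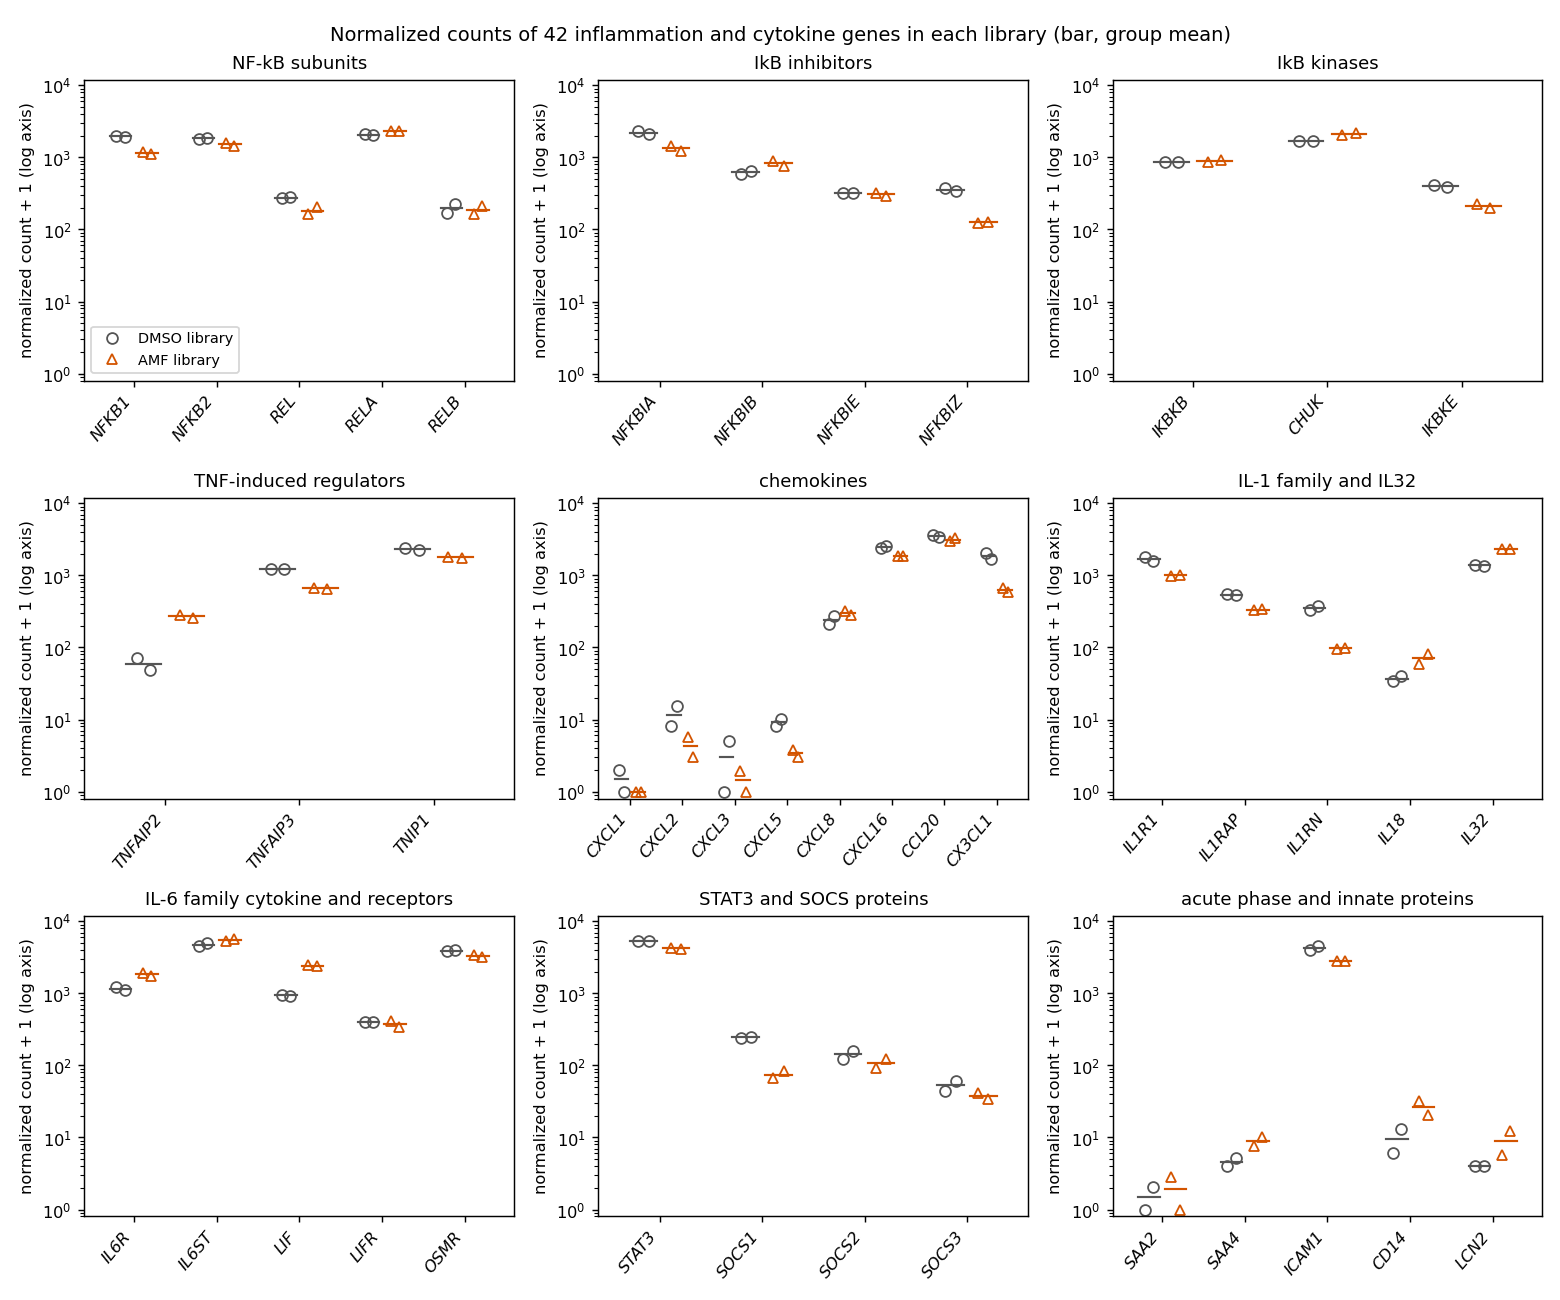
Normalized counts plus 1 on a log axis of the 42 genes in each DMSO library (circles) and AMF library (triangles), with group means as bars, in panels by role. LIF and TNFAIP2 lie higher in both AMF libraries, CX3CL1, IL1RN and SOCS1 lower, and CXCL1, CXCL3 and SAA2 sit near 0 reads in both groups.

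The DNA-binding subunits did not move as 1 block. NFKB1, which encodes the precursor of the p50 subunit, had 2011 and 1950 normalized counts in DMSO replicates 1 and 2 and 1195 and 1127 in the AMF libraries. Both AMF libraries lay well below both DMSO libraries, and the change was -0.77 (SE 0.0599, adjusted p = 1.95e-07). REL, the c-Rel subunit known from lymphoid cells, had 271 and 278 in DMSO and 162 and 201 in AMF (-0.60, SE 0.13, adjusted p = 0.00234). RELA, which encodes the transactivating p65 subunit, had 2084 and 2022 in DMSO and 2302 and 2296 in AMF. The RELA groups did not overlap, and the rise was small, at 0.16 (SE 0.0525, adjusted p = 0.0275). NFKB2, the precursor of p52 in the alternative pathway, was lower by a small margin (-0.28, adjusted p = 0.00195). RELB, the partner of p52, did not pass, at 169 and 222 in DMSO and 163 and 210 in AMF, with replicate 1 below replicate 2 in both groups. Without DMSO replicates 1 and 2 the calls ended for REL (adjusted p = 0.12 and 0.136), RELA (0.0715 and 0.113) and NFKB2 (0.0745 and 0.102).

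Among the inhibitors, NFKBIA and NFKBIZ were lower and NFKBIB was higher. NFKBIA encodes IkB-alpha, the inhibitor that NF-kB itself induces, and its promoter is printed above. It had 2323 and 2093 normalized counts in DMSO and 1462 and 1233 in AMF, so the lowest DMSO library lay above the highest AMF library. The change was -0.72 (SE 0.0775, adjusted p = 5.43e-06), with an adjusted p of 0.0628 without DMSO replicate 1. NFKBIZ encodes IkB-zeta, a nuclear cofactor for secondary inflammatory genes, and fell from 371 and 337 in DMSO to 124 and 128 in AMF (-1.48, SE 0.122, adjusted p = 3.69e-07). NFKBIB, the IkB-beta gene, was higher (0.41, adjusted p = 0.00141), a call that ended without DMSO replicate 1 or 2 (0.127 and 0.0837). NFKBIE, the IkB-epsilon gene, did not pass, with 323 and 316 in DMSO and 325 and 292 in AMF. Exons of NFKBIB overlap those of SIRT2 on the other strand, so its reads, from a kit that keeps no strand, can include some of SIRT2.

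Among the genes of IkB kinases and their relatives, IKBKE was lower, CHUK was higher and IKBKB did not pass. IKBKE, an IKK-related kinase linked to interferon induction, had 420 and 384 normalized counts in DMSO and 224 and 198 in AMF (-0.93, SE 0.111, adjusted p = 1.42e-05). CHUK, the gene of IKK-alpha, was higher (0.31, adjusted p = 5.32e-04; 0.0533 without DMSO replicate 1). IKBKB, the gene of IKK-beta, which phosphorylates IkB-alpha in the classical pathway, had 857 and 852 in DMSO and 865 and 907 in AMF and did not pass (0.05, SE 0.0689, adjusted p = 0.625).

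All 3 regulators that tumour necrosis factor is known to induce passed, and they did not move in the same direction. TNFAIP3 encodes A20, a ubiquitin-editing enzyme that shuts off NF-kB signalling. Its counts were 1224 and 1211 in DMSO and 679 and 647 in AMF, a change of -0.88 (SE 0.0684, adjusted p = 2e-07). TNIP1, an A20-binding partner, was lower (-0.38, adjusted p = 9.52e-05). TNFAIP2 had 70 and 47.2 in DMSO and 283 and 257 in AMF. It rose by 2.21 (SE 0.188, adjusted p = 4.88e-07), the highest change of the 40 genes, and by 2.49 and 1.93 without DMSO replicates 1 and 2. Exons of TNFAIP3 overlap those of an antisense transcript.

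Chemokines with many reads were lower or did not pass. CX3CL1, also called fractalkine, is made as a membrane-bound chemokine and had 2055 and 1716 normalized counts in DMSO and 671 and 591 in AMF. Its change of -1.57 (SE 0.0873, adjusted p = 6.47e-09) was several times the gap of 0.26 between its DMSO libraries. CXCL16, the other membrane-bound chemokine, was lower (-0.44, adjusted p = 1.83e-05). CCL20, which attracts cells with the receptor CCR6, had 3696 and 3432 in DMSO and 3001 and 3290 in AMF, a small fall of 0.18 on the log2 scale (adjusted p = 0.0249) that did not pass without DMSO replicate 1 or 2 (0.315 and 0.137), with a pseudocount of 0.1, or with no filter on low values. CXCL8, the gene of interleukin-8, had 211 and 269 in DMSO and 315 and 278 in AMF and did not pass (0.31, SE 0.131, adjusted p = 0.0883).

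Unlike CXCL8, the neutrophil chemokine genes CXCL1, CXCL2, CXCL3 and CXCL5 were close to silent in these cells in both groups. CXCL2 had 7 and 14 reads in DMSO and 5 and 2 in AMF, and CXCL5 had 7 and 9 in DMSO and 3 and 2 in AMF. Neither passed (adjusted p = 0.111 and 0.113). CXCL3 had 0 and 4 reads in DMSO and 1 and 0 in AMF, where no difference is detectable at this depth. CXCL1, CXCL2 and CXCL3 are close paralogs, and how their reads were divided is uncertain.

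In the interleukin-1 branch, both chains of the receptor and its antagonist were lower. IL1R1 binds interleukin-1 and had 1805 and 1586 normalized counts in DMSO and 973 and 1029 in AMF (-0.76, SE 0.071, adjusted p = 1.34e-06). IL1RAP, the accessory chain that the receptor needs to signal, had 548 and 528 in DMSO and 331 and 339 in AMF (-0.68, SE 0.0891, adjusted p = 3.19e-05). IL1RN encodes the secreted antagonist that blocks this receptor. It had 334 and 370 in DMSO and 95.6 and 96.8 in AMF, and its change of -1.86 (SE 0.13, adjusted p = 6.72e-08) was the lowest of the 40 genes. The receptor and its antagonist were thus lower in the same libraries.

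IL32 and IL18 were higher. IL32, a cytokine gene with no mouse counterpart, had 1395 and 1361 normalized counts in DMSO and 2298 and 2342 in AMF (0.75, SE 0.0552, adjusted p = 1.12e-07). IL18, an interleukin-1 family cytokine that caspase-1 matures, had 33 and 39 in DMSO and 58.5 and 81.4 in AMF (0.92, SE 0.259, adjusted p = 0.0129). Its AMF libraries lay above both DMSO libraries but differed by 0.47 from each other, and the call ended without DMSO replicate 1 or 2 (0.182 and 0.13). Exons of IL1R1, IL1RAP and IL32 overlap those of non-coding neighbours.

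In the interleukin-6 family, a ligand and a receptor were higher, and the shared chain changed little. LIF, leukemia inhibitory factor, is a ligand of this family and had 964 and 912 normalized counts in DMSO and 2484 and 2373 in AMF. The rise of 1.37 (SE 0.0604) had the smallest adjusted p of these genes, 6.44e-10. IL6R, the receptor chain that binds interleukin-6, had 1217 and 1119 in DMSO and 1943 and 1772 in AMF (0.67, SE 0.0669, adjusted p = 2.52e-06). IL6ST, the signalling chain gp130, had 4613 and 4947 in DMSO and 5296 and 5623 in AMF, a rise of 0.19 (SE 0.0498, adjusted p = 0.00808) that did not pass without DMSO replicate 1 or 2 (0.174 and 0.0743). OSMR, the oncostatin M receptor chain, was lower (-0.24, adjusted p = 0.00168; 0.0734 and 0.0918 without DMSO replicates 1 and 2). LIFR, the chain that binds LIF, had 404 and 401 in DMSO and 408 and 343 in AMF and did not pass. Exons of LIF overlap those of LIF-AS1, those of IL6ST and LIFR overlap antisense transcripts and those of OSMR overlap RICTOR, and reads of such pairs cannot be told apart without strand.

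Downstream of these receptors, STAT3 and SOCS1 were lower. STAT3, the factor that gp130 activates, had 5353 and 5346 normalized counts in DMSO and 4267 and 4170 in AMF, a change of -0.34 (SE 0.044, adjusted p = 2.71e-05) with a gap of 0.00 between the DMSO libraries. SOCS1, which blocks JAK kinases, had 240 and 249 in DMSO and 65 and 82.4 in AMF (-1.73, SE 0.161, adjusted p = 1.27e-06). SOCS3, the STAT3-induced inhibitor that binds gp130, had 43 and 60.6 in DMSO and 39.9 and 33 in AMF and did not pass (-0.48, SE 0.277, adjusted p = 0.217). SOCS2, known for restraining growth hormone signalling, had 123 and 160 in DMSO and 91 and 123 in AMF and did not pass (-0.41, SE 0.189, adjusted p = 0.124), with replicate 1 below replicate 2 in both groups.

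Of the effector genes, ICAM1 was lower and CD14 was higher. ICAM1, an adhesion molecule for leukocytes that cytokines induce on many cells, had 3957 and 4562 normalized counts in DMSO and 2811 and 2810 in AMF (-0.60, SE 0.0607, adjusted p = 3e-06). CD14, a co-receptor for bacterial lipopolysaccharide that hepatocytes also make, had 5 and 12.3 in DMSO and 31.6 and 19.6 in AMF. Its rise of 1.53 (SE 0.492, adjusted p = 0.0274) rests on few reads and did not pass without DMSO replicate 1 or 2 (0.264 and 0.0884), with a pseudocount of 0.1 (0.0627), or with no filter on low values (0.0782). The acute phase genes on the list were near the limit of detection. SAA4, a serum amyloid A made constitutively, had 3 and 4 reads in DMSO and 7 and 9 in AMF, and LCN2, the iron-scavenging lipocalin of innate defence, had 3 and 3 in DMSO and 5 and 11 in AMF, and neither passed (adjusted p = 0.268 and 0.259). The serum amyloid A genes are close paralogs, so their reads are split with uncertainty.

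**Figure D3:**
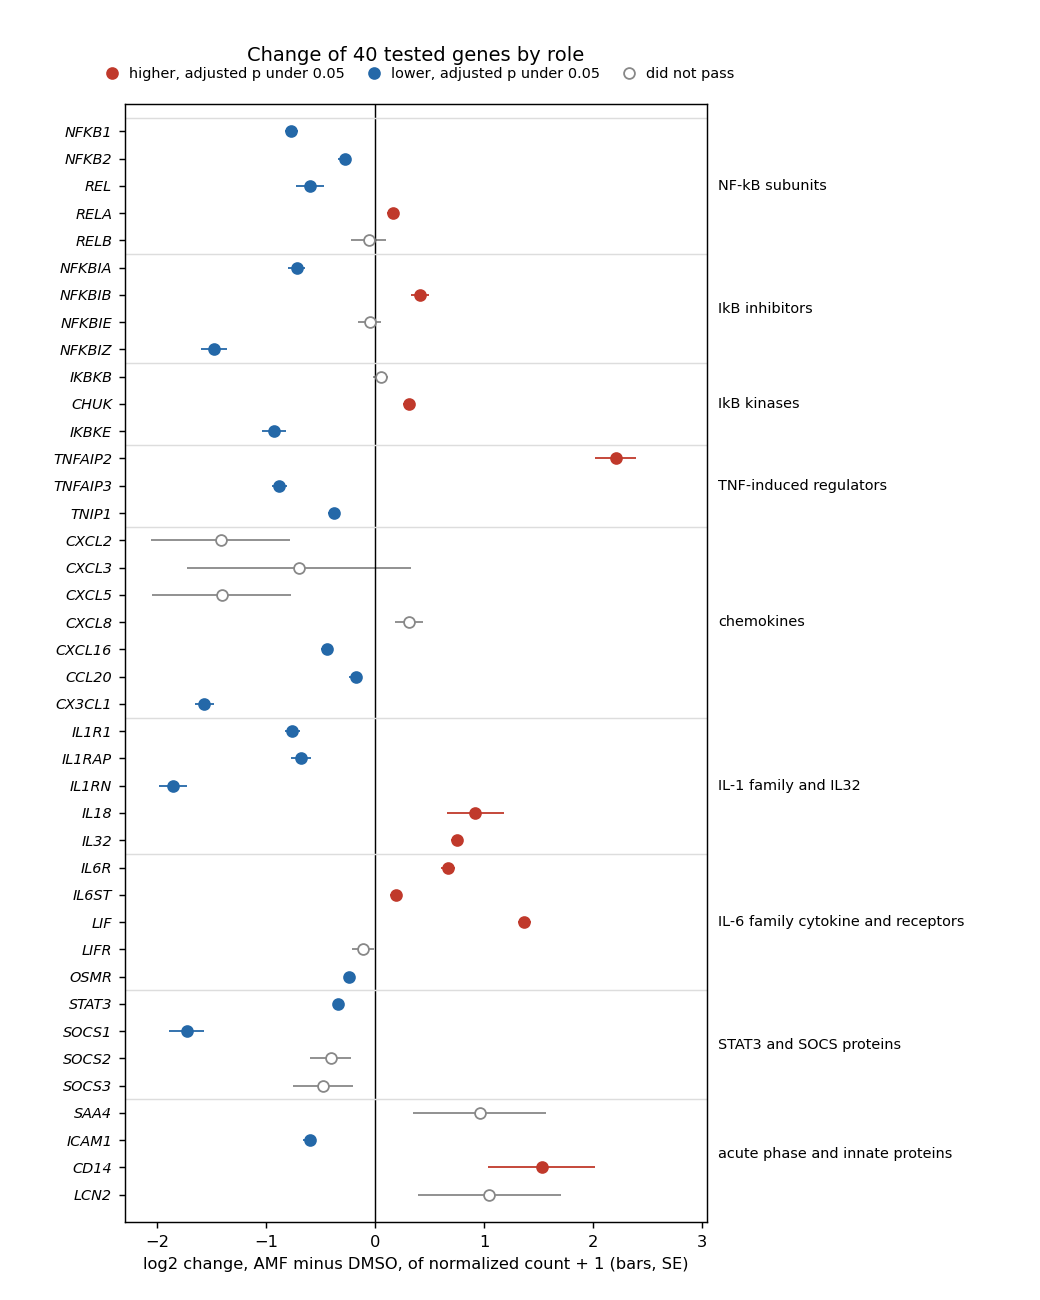
Log2 change of AMF minus DMSO with its standard error (bars) for the 40 tested genes, by role. Filled points passed an adjusted p of 0.05, and the changes run from -1.86 for IL1RN to 2.21 for TNFAIP2.

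Other genes of the same pathways were read from 5 lists, each taken whole. Of 41 tested genes that carry the signal from receptors to the IkB kinases, 7 were higher, 11 lower and 23 did not pass, with a median of 0.01. Where the mean reached 100, 18 of 32 passed, close to the 54.7% of all such genes, and in the 4 lists that follow 8 of 11, 17 of 28, 14 of 19 and 5 of 8 did. The largest rise was that of TNFRSF1B, the second tumour necrosis factor receptor, with 23 and 29.8 normalized counts in DMSO and 265 and 289 in AMF (3.35, SE 0.197, adjusted p = 1.14e-08). TAB3, an adaptor of the kinase TAK1, rose from 2064 and 1794 in DMSO to 4006 and 4044 in AMF (adjusted p = 1.08e-08). TLR2, a receptor for bacterial lipoproteins, fell by 1.19 on the log2 scale, and IL18BP, the decoy that neutralizes interleukin-18, fell by 0.85. Exons of TAB3 and IL18BP overlap those of neighbours on the other strand.

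Further known NF-kB targets went both ways. Of 21 tested, 5 were higher, 6 lower and 10 did not pass, with a median of 0.35 that includes genes with few reads. NOS2, the inducible nitric oxide synthase, had 1 and 5 reads in DMSO and 30 and 22 in AMF (2.90, SE 0.601, adjusted p = 0.00169). PLAU, the urokinase gene, rose by 1.63. CD83 was lower (-1.15), as was SOD2, the mitochondrial superoxide dismutase, with 3429 and 3738 in DMSO and 1932 and 2125 in AMF (-0.82, SE 0.0604, adjusted p = 1.14e-07). The classical cytokine genes IL6 and TNF had 1 and 3 reads over the 4 libraries and were not tested. IL1A, a gene of interleukin-1, had 1 and 1 reads in DMSO and 11 and 16 in AMF. It was higher on these few reads (2.80, SE 0.652, adjusted p = 0.00392). IL1B had 0 and 0 reads in DMSO and 9 and 2 in AMF and did not pass. NOS2, PLAU and SOD2 share exonic sequence with overlapping genes.

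Of 33 tested partners of the JAK-STAT and interleukin-6 route, 2 were higher, 15 lower and 16 did not pass, with a median of -0.15. CEBPB, a transcription factor of the acute phase response, had 3620 and 3884 normalized counts in DMSO and 2164 in both AMF libraries (-0.79, SE 0.0522, adjusted p = 3.73e-08). The rises were those of PIM1 (0.18), a kinase gene that STAT factors induce, and the phosphatase PTPN1 (0.14). Exons of CEBPB overlap those of an antisense transcript.

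Of 21 tested further proteins that rise in plasma in the acute phase, 2 were higher, 13 lower and 6 did not pass, with a median of -0.43. ITIH3, an inter-alpha-trypsin inhibitor chain, had 1907 and 1974 normalized counts in DMSO and 695 and 602 in AMF (-1.58, SE 0.0744, adjusted p = 1.22e-09), and HPX, the heme carrier hemopexin, had 31 and 33.9 in DMSO and 9.29 and 12.4 in AMF (-1.51, adjusted p = 0.00698). AGT, the angiotensinogen gene, had 17217 and 16377 in DMSO and 18804 and 17697 in AMF, a small rise of 0.12 (SE 0.0416, adjusted p = 0.0407). Of 9 plasma proteins that fall in the acute phase, 2 were higher, 4 lower and 3 did not pass. Among these the fetuin AHSG (-1.39) and transferrin, TF (-0.97), were lower, and the coagulation factor F12 (0.79) and the apolipoprotein APOA2 (0.35) were higher. The hepatocyte markers given above share genes with these lists, AHSG and TF among them, and the part of their lower sum in these counts was not tested.

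**Figure D4:**
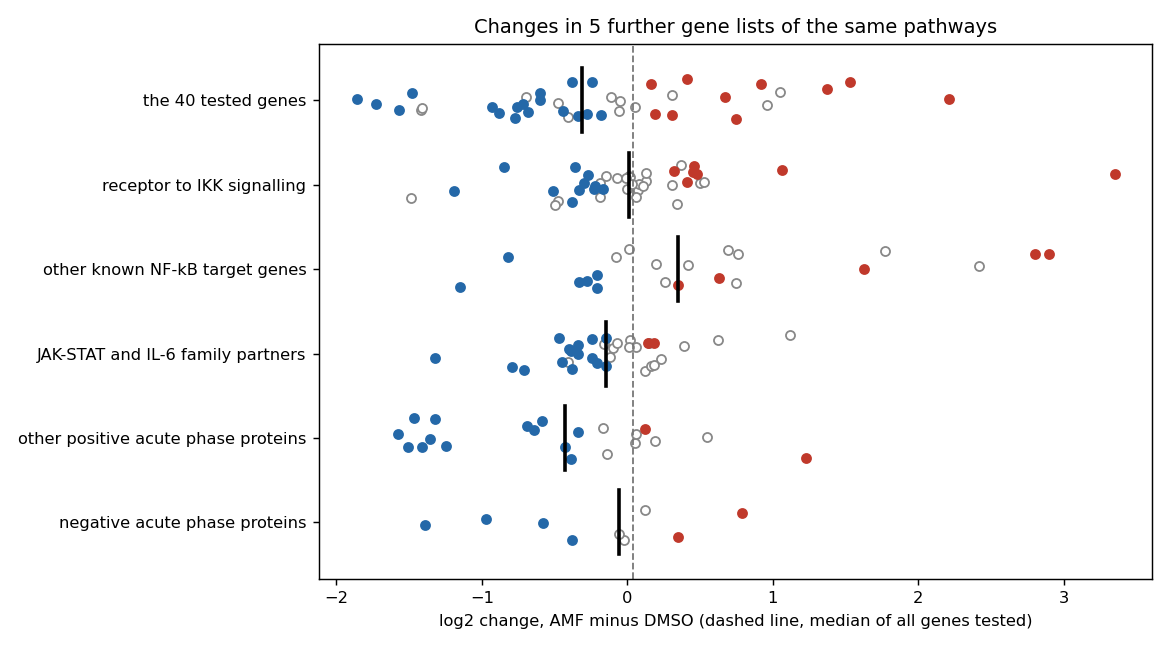
Log2 changes of AMF minus DMSO for the 40 tested genes and for 5 further lists, 1 point per gene, filled red for higher and blue for lower at an adjusted p of 0.05 and open where the test was not passed. Black bars are medians, from -0.43 for the other positive acute phase proteins to 0.35 for other known NF-kB targets, and the dashed line is the median of all genes tested, 0.04. Vertical scatter within a list has no meaning.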

How the data were processed

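Per the labels' protocols, poly(A)-selected RNA was made into libraries with a kit that keeps no strand. The submitters' processing notes name STAR 2.7.0, featureCounts and the build hg19. For annotation, filters and normalization, the sources used here give nothing. Values in the deposited table are on a log2 scale with the same lowest value of 6.01 in all 4 libraries. They have the form of a variance-stabilizing transformation, as read from the values, and 0 columns of other samples were present. Inverting that transformation, with the lowest value as 0 reads, gave normalized counts. Divided by the worth of 1 read, 100% of values were whole within 0.01 reads.

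The test planned for normalized values was used, since the deposited unit is log2: limma-trend (limma 3.58.1, R 4.3.3) on log2(normalized count + 1) for genes with a mean of at least 1, with group as the sole term. The fit and the recovery of reads were tested on simulated data. The listed genes, their roles and the further lists were chosen with earlier results of these data known. Each library's value is given for genes with a mean of at least 10 that passed with a change of at least 1.5-fold, and for RELA, NFKB1, NFKBIA, STAT3, SOCS3, IL6R, IL6ST, CXCL8 and ICAM1. Other values were added after they were seen. From each further list, up to 2 rises and 2 falls with a mean of at least 10 are named, except some that are not reported here. Alternatives were a pseudocount of 0.1, no filter, a mean of at least 10, the deposited values, library totals, voom, each library left out and the replicate number as a block. Exon overlaps come from GENCODE release 29, whose build is not hg19 and whose coordinates are not used. Exons of 18 of the 42 genes overlap another gene there. Those not named above are CHUK (with ERLIN1), CXCL16 (with MED11), SAA2 and SAA4 (with SAA2-SAA4), and ICAM1, IKBKE, REL, RELA and SOCS2 (with non-coding neighbours). Read counts without molecular identifiers do not count independent molecules. Figures were drawn with matplotlib 3.10.9.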

Additional observations from a re-analysis of the deposited data

How the results depend on the processing

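Among the 40 genes tested, 10 higher and 18 lower calls became 9 and 17 with a pseudocount of 0.1 or no filter, with CCL20 and CD14 lost, and stayed at 10 and 18 with a mean of at least 10, the deposited log2 values, library totals or voom. With 1 library left out, higher calls ranged from 0 to 5 and lower calls from 0 to 14, and calls over all genes from 0 to 1753 and 0 to 1780. Limma-trend estimated 11.9 prior degrees of freedom from all libraries and 0.995 and 1 without AMF replicates 1 and 2. Voom without AMF replicate 1 called 3 of the genes higher and 7 lower (667 and 712 of all genes), and without AMF replicate 2 called 4 higher and 7 lower (636 and 679). The median change, -0.31, was -0.209 on the deposited scale, -0.322 to -0.228 with 1 library left out, and -0.244 in voom without AMF replicate 2. The cause of these shifts of the median was not tested. With the replicate number as a block, 11 genes were called higher and 18 lower. The added call was that of CXCL8 (0.31, adjusted p = 0.0351). The labels do not say whether same-numbered libraries belong together. Deviations of same-numbered libraries from their group means had a correlation of 0.02 across 11137 genes, which are not independent. With 2 libraries per group this value cannot decide whether they were paired. Depth limits CXCL1, CXCL2, CXCL3, CXCL5, SAA2, SAA4 and LCN2, with at most 14 reads in a library.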
